A study of Mus musculus with 6 samples.

Results

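Translation initiation and elongation factors were examined in pre-B cells of Eμ-Myc mice. Members were the protein-coding autosomal genes of the GENCODE vM1 annotation whose symbol begins with Eif1 to Eif6 or with Eef1a, Eef1b, Eef1d, Eef1g or Eef2. The rule gave 63 genes of 37991 in the files, and no measured value was used to choose them. A further 8 genes carry such a symbol and were left out by the rule, among them the X-linked Eif1ax and Eif2s3x, the Y-linked Eif2s3y and 4 pseudogenes. The prefixes also take in genes that are not translation factors: Eif2c1 to Eif2c4 are former symbols of the Argonautes, the effectors of small RNA silencing, and Eif4a3 is the helicase of the exon junction complex.

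Polyadenylated RNA was sequenced from 2 wild-type, 2 premalignant and 2 malignant libraries, the replicates being biological. All mice were C57BL/6. The labels give 1 gate for the bone marrow of every stage, high B220 with low IgM and IgD, whereas the study's methods give it for wild-type and premalignant cells and name malignant cells as positive for B220 and negative for IgM and IgD, so the gate may differ with the malignant stage. Wild-type mice were 4 to 6 weeks old and carried no transgene. Premalignant mice were heterozygous for Eμ-Myc (genotype E{mu}Myc/+), in which the immunoglobulin heavy-chain enhancer drives Myc in B-lineage cells, and were also 4 to 6 weeks old. Malignant mice had the same genotype and were taken at 10 to 20 weeks, once spontaneous lymphoma had developed. Wild-type and premalignant mice were female, whereas both sexes were used for malignant cells, so the malignant stage cannot be told apart from age and, in part, from sex.

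Initiation begins when eIF2 brings the initiator tRNA to the small ribosomal subunit, on which eIF1, eIF1A and eIF3 also sit. The eIF4F complex, made of the cap-binding protein eIF4E, the scaffold eIF4G and the helicase eIF4A, recruits this assembly to the mRNA. eIF5 and eIF5B then bring about subunit joining, and eEF1 and eEF2 drive each step of elongation. Kinases of eIF2α, the 4E-BP repressors and the eEF2 kinase restrain these steps. Genes of the translation machinery are well-known targets of MYC, which binds the E-box CACGTG.

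Myc stood at 33.7 and 41.4 CPM (counts over the library size after TMM scaling) in the wild-type libraries, 1164 and 1155 in the premalignant and 1731 and 1578 in the malignant libraries. Total counts ranged from 30031100 to 53453055, so that 3 counts corresponded to 0.0525 to 0.108 CPM, a limit that covers counting error only. The 11 pre-B markers summed to 6860 and 7700 CPM in wild type, 3389 and 3381 in premalignant and 3166 and 2778 in malignant libraries, with none at 0 throughout, and 10 of the 11 were lower than wild type in each of the other stages. Markers of other cells also moved with stage. The 7 myeloid markers summed to 775 and 1702 CPM in wild type, 232 and 248 in premalignant and 55.3 and 113 in malignant libraries, and all 7 were called lower in both comparisons with wild type. The 5 erythroid markers fell from 293 and 1080 CPM to 59.9 and 138 and to 52.3 and 57.5, with 4 of 5 called lower in each. The sums of NK, T and plasma cell markers were likewise highest in wild type, at 35.3 to 92.7 CPM there and at most 30.9 CPM elsewhere. All 3 NK markers were called lower in both stages. Of the 4 T cell markers, 3 were called lower in malignant and 2 in premalignant cells. For the 2 plasma cell markers these counts were 2 and 1. Cd8a went the other way in premalignant cells, at 17.8 and 6.84 CPM beside 8.53 and 5.63 in wild type, and was not called (0.80). The part of these cells in the results on translation factors was not tested, and in bulk samples fewer cells of a type and less RNA per cell cannot be told apart.

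The promoters of some of the main members hold the E-box, and short stretches around it are shown because Myc is the transgene of this model. RefSeq promoter windows (build GRCm38.p6, 250 bases before to 50 after each annotated start) were found for 48 members. CACGTG, which reads the same on both strands, lay in at least 1 window of 12 of these 48 members (25.0%), beside 8.09% of all 27025 genes in that table. Counted per window, since members can have several starts, the shares were 21.9% and 7.15%. The genes of that table were not limited to those tested here, so these shares, and those below, compare unlike sets. The stretches below end before the annotated start, carry the E-box in capitals and were placed on NCBIM37 (mm9) by an exact match that was found once on the chromosome.
Eif4e, 64 bases upstream of a start, chr3:138190141-138190200, plus strand: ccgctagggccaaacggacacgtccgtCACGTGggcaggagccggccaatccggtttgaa
Eif4g1, 54 bases upstream, chr16:20672719-20672778, plus strand: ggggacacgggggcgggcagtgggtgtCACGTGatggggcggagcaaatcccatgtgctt
Eif4a1, 189 bases upstream, chr11:69486082-69486141, minus strand: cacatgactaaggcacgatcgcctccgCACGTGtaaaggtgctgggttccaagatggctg
Eef2, 43 bases upstream, chr10:80639306-80639365, plus strand: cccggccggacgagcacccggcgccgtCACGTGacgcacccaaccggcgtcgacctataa
Eef2k, 31 bases upstream, chr7:127986287-127986344, plus strand: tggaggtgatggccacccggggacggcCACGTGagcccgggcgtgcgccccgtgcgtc
None of these stretches overlaps an annotated exon, although those of Eif4e and Eif4g1 lie inside the gene, in an intron of a longer transcript model. Eif4e, Eif4g1, Eif4a1 and Eef2 were higher in both Eμ-Myc stages, whereas Eef2k was lower. The other members with an E-box were Eif1b, Eif3a, Eif3f, Eif3k, Eif4h, Eif5a and Eif5a2. Among members with a window, it was present for 8 of 30 called higher in malignant cells, 2 of 5 called lower and 2 of 12 not called. A pyrimidine run, taken as a C followed by at least 4 of C or T and starting within 5 bases of an annotated start, was found for 13 of the 48 members (27.1%) and for 21.2% of all genes. A match of letters is a description and says nothing of binding.

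Most translation factor genes were higher in the Eμ-Myc stages than in wild type, and the rise was already present in premalignant cells. In malignant vs. wild type, 39 of the 60 members tested were called higher and 6 lower in edgeR, a call needing an FDR no higher than 0.1 together with a log2 fold change of 0.5 or more in either direction. Over all 16683 genes tested, 24.9% were called higher and 24.3% lower, against 65.0% and 10.0% of the members. The members' median log2 fold change was 0.89, and that of all genes was −0.02. In premalignant vs. wild type, 38 members were called higher and 4 lower, or 63.3% and 6.67%, beside 19% and 20.3% of all genes, with medians of 0.78 and −0.08. Both comparisons share the wild-type libraries, so their values are given side by side and are not independent. Called higher in both were 36 members, and Eef2k, Eif2ak3, Eif2c4 and Eif4e3 were called lower in both.

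In malignant vs. premalignant, 0 members were called higher and 1 lower in edgeR, beside 3.73% and 2.45% of all genes. The median of the members was 0.14 and that of all genes 0.04. An unadjusted p under 0.05 was found for 8 of the 60 members, and DESeq2 called 4. For 54 members the difference was smaller than 0.5 on the log2 scale, with a standard error of 0.12 to 0.78 and a median of 0.16 over the 60. Members summed to 2.02% and 1.98% of all counts in wild-type libraries, 3.45% and 3.54% in premalignant and 3.90% and 3.40% in malignant libraries.

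**Figure D1:**
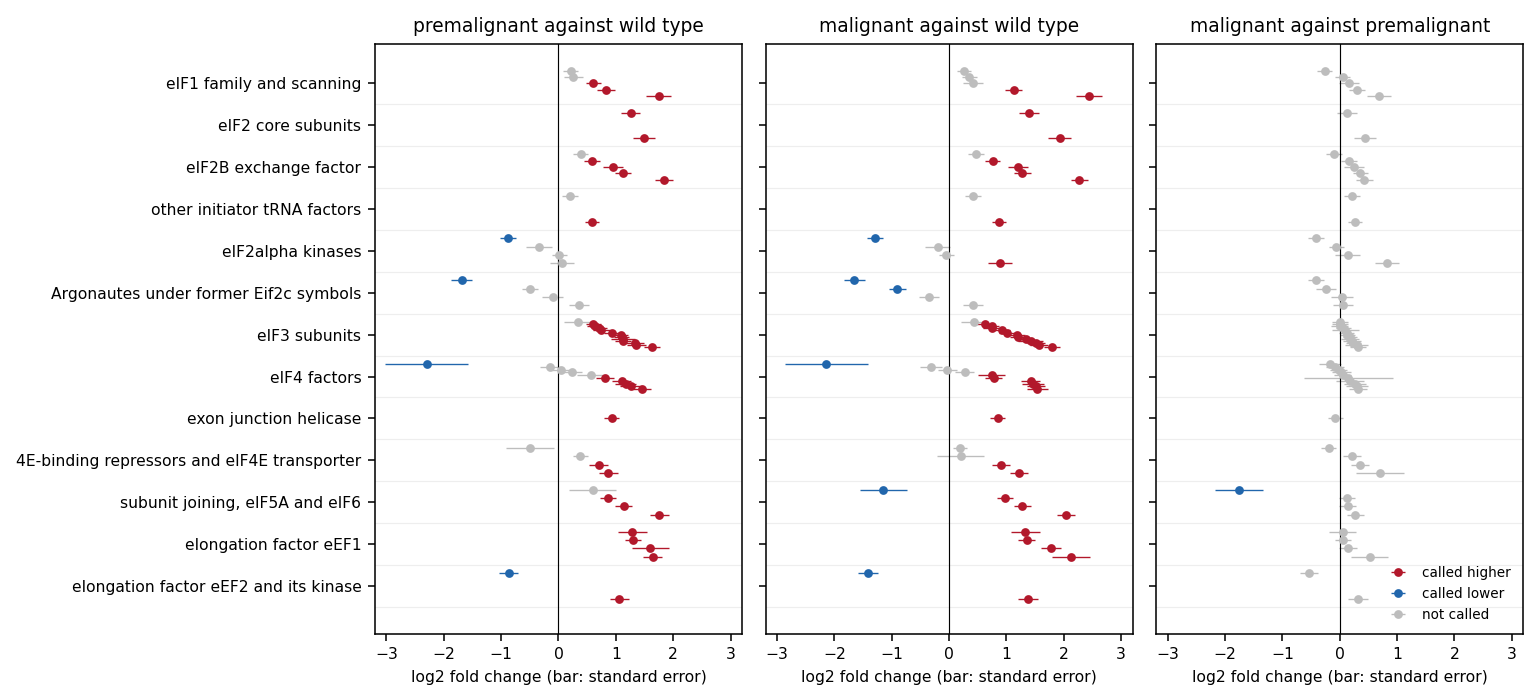
Log2 fold change of each of the 60 members tested (x axis; bars are standard errors of the edgeR fit), in rows by role, for the 3 comparisons; red and blue points were called higher or lower and grey points were not called. The eIF2, eIF3 and eEF1 rows lie to the right of 0 against wild type, kinases and Argonautes on either side of it, and only Eif5a2 was called between the Eμ-Myc stages in this fit.

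Members without kinases, 4E-binding proteins, Argonautes, Eif4a3 and Eif1ad, that is the factors proper, numbered 45 among those tested, of which 35 were called higher and 2 lower in malignant vs. wild type. Of the other 15 members, 4 were called higher and 4 lower. Medians of the log2 fold change were 1.20 and 0.19. In premalignant vs. wild type the counts were 34 higher and 1 lower of 45, and 4 higher and 3 lower of 15. In malignant vs. wild type the shares of the 15, 26.7% in each direction, were near those of all genes.

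In what follows, values per library are given as wild-type replicates 1 and 2, then premalignant 1 and 2, then malignant 1 and 2. A pair of log2 fold changes gives malignant and then premalignant vs. wild type, ± the standard error, unless another comparison is named. The complexes were compared per length of exon, as the geometric mean RPKM of their subunit genes in each library. Length was that of all annotated exons of a gene merged, which can exceed that of its mRNA. Levels in RPKM compared between genes, and ratios of them, therefore depend on the annotation, while the same length was used in every library. The 2 autosomal subunits of eIF2 averaged 20.4 and 15.8 RPKM in wild type, 46.4 and 47.4 in premalignant and 56.1 and 57.8 in malignant libraries. The 13 subunits of eIF3 averaged 68.8 and 64.1 RPKM, 128.8 and 132.9, and 150.5 and 136.9. The 5 genes of eIF4F averaged 47.0 and 48.1 RPKM, 83.8 and 82.8, and 82.7 and 94.7. In each complex both wild-type libraries lay below all 4 Eμ-Myc libraries, and for eIF4F the premalignant and malignant values overlapped. Subunit medians of the log2 fold change in malignant vs. wild type were 1.66 for eIF2, 1.18 for eIF3 and 1.47 for eIF4F, and 1.37, 1.09 and 1.17 in premalignant vs. wild type. Between the Eμ-Myc stages they were 0.29, 0.13 and 0.05. The order of eIF3 and eIF4F depended on the measure. In the Eμ-Myc libraries the geometric mean of eIF3 lay above its wild-type mean by log2 values of 0.96 to 1.18. For eIF4F these values were 0.80 to 0.99. The eIF4F median lies on a gene that rose and does not show Eif4a2 (0.27) and Eif4g3 (−0.31 in malignant vs. wild type). As a ratio within each library, eIF3 stood at 3.37 and 4.05 times eIF2 in wild type, 2.78 and 2.80 in premalignant and 2.68 and 2.37 in malignant libraries. eIF4F stood at 2.30 and 3.04 times eIF2, 1.81 and 1.75, and 1.47 and 1.64, so both were closer in level to eIF2 in the Eμ-Myc libraries. The medians and ratios of eIF2 leave out its γ subunit, whose genes the rule excludes. The X-linked gene of that subunit, Eif2s3x, rose by 1.00 and 1.10, less than both autosomal subunits. Its level in wild type, 55.9 and 45.4 RPKM, lay above the eIF2 averages. Medians and ratios with this subunit included were not computed. The place of eIF2 among the complexes is therefore given for its autosomal subunits only. Relative to eIF3, eIF4F stood at 0.683 and 0.750, 0.651 and 0.623, and 0.550 and 0.692, with malignant replicate 2 within the range of wild type. With 2 libraries a stage, an exact permutation test of such a ratio cannot give a two-sided p below 0.333.

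**Figure D2:**
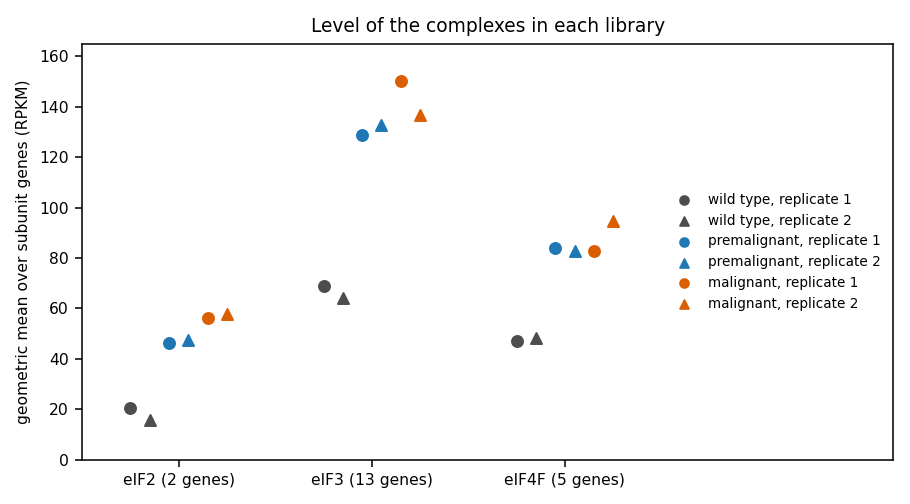
Geometric mean RPKM over the subunit genes of eIF2, eIF3 and eIF4F (y axis, from 0) in each of the 6 libraries; colour gives the stage and symbol the replicate. The wild-type points are lowest in each complex, at 15.8 to 20.4 RPKM for eIF2 and 64.1 to 68.8 RPKM for eIF3.

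Of the eIF2 genes, Eif2s1 encodes eIF2α, the subunit that stress kinases phosphorylate. It stood at 96.6 and 74.0 CPM in wild type, 232 and 246 in premalignant and 285 and 366 in malignant libraries. Its log2 fold change was 1.93 ± 0.20 (SE, adjusted p = 0.00122) in malignant and 1.49 ± 0.19 (adjusted p = 0.0044) in premalignant vs. wild type. Eif2s2, which encodes eIF2β, stood at 99.4 and 77.7 CPM, 213 and 210.0, and 254 and 210.2, and rose by 1.39 ± 0.17 and 1.26 ± 0.17. Levels in the Eμ-Myc stages did not overlap with wild type for either gene.

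The γ subunit of eIF2, which binds GTP and the initiator tRNA, is encoded on the sex chromosomes and is therefore no member, but it completes the complex. Eif2s3x stood at 213 and 173 CPM in wild type, 396 and 433 in premalignant and 309 and 465 in malignant libraries. It was called higher in malignant (1.00, adjusted p = 0.0144) and premalignant cells (1.10, adjusted p = 0.0158) vs. wild type. Eif2s3y stood at 124 CPM, or 5929 counts, in malignant replicate 1 and at 1 to 5 counts in the other 5 libraries. In those 5 libraries it did not exceed 0.113 CPM. The labels give no sex for each library, but RNA of this Y-linked gene places male cells in malignant replicate 1. Malignant replicate 2 stood at the level of the wild-type and premalignant libraries, which came from female mice. Summed per length, the gene pair reached 55.9 and 45.4 RPKM in wild type, 104 and 114 in premalignant and 111 and 122 in malignant libraries. The difference between the malignant libraries was thus 81.2 against 122 RPKM for Eif2s3x alone and 111 against 122 RPKM for the sum.

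**Figure D3:**
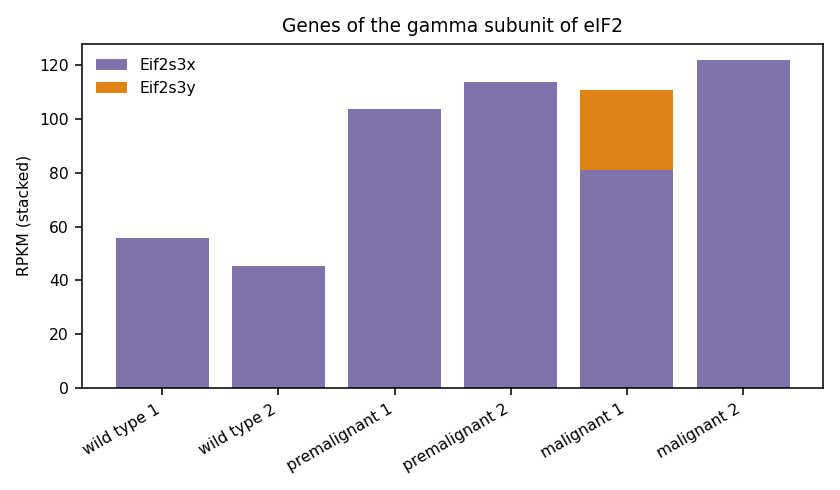
RPKM of Eif2s3x and Eif2s3y, stacked (y axis, from 0), in each of the 6 libraries. Eif2s3y adds 29.8 RPKM in malignant replicate 1 and is not visible in the others.

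eIF2B returns eIF2 to its GTP-bound form after each round of initiation. Of its 5 subunit genes, 4 were called higher in each comparison with wild type. The largest change was that of Eif2b3 (γ subunit), from 10.9 and 10.3 CPM to 36.0 and 39.8 in premalignant and 52.3 and 49.6 in malignant libraries (2.27 ± 0.15, adjusted p = 0.000628, in malignant vs. wild type). Eif2b5, which encodes the catalytic ε subunit, stood at 73.7 and 74.2, 140.1 and 144.9, and 144.3 and 195.3 CPM, a rise of 1.20 ± 0.17 and 0.95 ± 0.17. Eif2b4 (δ subunit), at 29.8 and 33.1, 46.4 and 47.4, and 43.3 and 44.0 CPM, was called in premalignant cells (0.58) and fell just short of the fold threshold in malignant cells (0.47, adjusted p = 0.0355). Without wild type replicate 2 the malignant value was 0.55 and was called, and the premalignant call was lost without either premalignant replicate or wild type replicate 1 (adjusted p = 0.105 to 0.195). For Eif2b2 (β subunit) the order was the other way, with 0.39 in premalignant and 0.76 in malignant cells. Of the alternative initiator tRNA factors, Eif2a was called higher in both stages, by 0.87 and 0.59, and Eif2d in neither (0.41 and 0.20). The premalignant call of Eif2a was lost without either premalignant replicate (adjusted p = 0.118 and 0.169), and Eif2d was called in malignant cells without malignant replicate 2 (0.51).

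Of the 4 genes of eIF2α kinases, which shut down initiation under stress, 1 was called higher and 1 lower in malignant vs. wild type, a share near that of all genes, and 0 higher and 1 lower in premalignant vs. wild type. Eif2ak3 (PERK, the kinase of endoplasmic reticulum stress) stood at 164 and 194 CPM in wild type, 94.1 and 99.8 in premalignant and 75.6 and 69.8 in malignant libraries, and was called lower in both stages (−1.30 ± 0.14 and −0.88 ± 0.14). Eif2ak4 (GCN2, the kinase of amino acid shortage) stood at 50.2 and 71.7, 59.7 and 67.7, and 122 and 103 CPM. It was called higher in malignant vs. wild type only (0.88 ± 0.21, adjusted p = 0.0171). Its difference between malignant and premalignant cells, 0.82 ± 0.21, missed the threshold in edgeR (adjusted p = 0.106), while DESeq2 called it, and edgeR called it without malignant replicate 2 (0.90). Eif2ak1 (HRI) lay at 96.5 to 112 CPM in all 6 libraries. Eif2ak2 (PKR) stood at 50.9 and 53.5, 35.0 and 47.7, and 51.9 and 38.9 CPM and was not called (−0.20 ± 0.22 and −0.34 ± 0.22). Its premalignant values lay below those of wild type, and its malignant values overlapped with both stages.

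Genes downstream of these kinases were read beside them. Of 9 genes of the integrated stress response, 1 was called higher and 2 lower in malignant vs. wild type, and 1 higher and 3 lower in premalignant vs. wild type. In malignant cells these shares, 11.1% and 22.2%, did not exceed the 24.9% and 24.3% of all genes. In premalignant cells the share called lower, 33.3%, exceeded the 20.3% of all genes. The share called higher there, 11.1%, lay below that of all genes. These differences in share were not tested. The one that rose was Asns (asparagine synthetase), at 1.72 and 4.78 CPM in wild type, 16.4 and 21.4 in premalignant and 86.2 and 77.3 in malignant libraries, called in all 3 comparisons (4.67, 2.56 and 2.11). Those that fell in malignant cells were Ddit3 (−1.18), the CHOP transcription factor, and Ppp1r15a (−3.19), a phosphatase subunit for eIF2α. Ppp1r15a stood at 18.2 CPM in wild type replicate 1 and 188 in replicate 2, against 9.60 to 17.2 CPM in the Eμ-Myc libraries, which replicate 1 barely exceeded. Atf4, the translationally controlled factor of this response, lay at 194 to 316 CPM and was not called.

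The eIF3 complex holds the pre-initiation complex together and bridges it to eIF4G. Of its 13 subunit genes, 12 were called higher in each comparison with wild type, and the log2 fold changes ranged from 0.44 to 1.80 in malignant and from 0.34 to 1.63 in premalignant cells. Eif3b, a core subunit, changed most. It stood at 194 and 191 CPM in wild type, 588 and 605.0 in premalignant and 708 and 639 in malignant libraries (1.80 ± 0.14, adjusted p = 0.000679, and 1.63 ± 0.14, adjusted p = 0.00182). The subunits of lowest level in wild type were Eif3j, at 6.16 and 4.80 RPKM, Eif3i, at 26.8 and 24.7 RPKM, and Eif3m, at 48.4 and 44.3 RPKM, with log2 fold changes of 1.51, 1.57 and 0.75 in malignant cells. Those of highest level were Eif3h, at 220.3 and 209.3 RPKM, Eif3e, at 159 and 137 RPKM, and Eif3k, at 125.9 and 121.3 RPKM, with 0.74, 1.01 and 0.63. A relation of level to rise was not tested. The ratio of the highest subunit, Eif3h, to the lowest, Eif3j, was 35.8 and 43.6 in wild type and 22.1 to 24.8 in the other 4 libraries. Of the exonic 50-base windows of Eif3j, 75.8% occur again letter for letter elsewhere in the genome, so its level depends on how such reads were counted and is uncertain.

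The subunit not called was Eif3f. It stood at 317 and 309 CPM in wild type, 414 and 377 in premalignant and 529 and 321 in malignant libraries, all 4 above wild type, with log2 fold changes of 0.44 ± 0.24 (adjusted p = 0.184) and 0.34 ± 0.24 (adjusted p = 0.321). Without malignant replicate 2 the malignant value was 0.78 and was called. Eif3e, a subunit at the mRNA exit side, stood at 245 and 211, 361 and 380.2, and 469 and 453 CPM (1.01 ± 0.14 and 0.70 ± 0.14), the premalignant call being lost without either premalignant replicate (adjusted p = 0.109 and 0.145). Eif3d, which can itself bind the cap, stood at 109.1 and 109.3, 229 and 247, and 235 and 351 CPM. Its rise over wild type was called in both stages (1.42 ± 0.21 and 1.12 ± 0.21), and malignant replicate 1 lay within the premalignant values while replicate 2 lay above them. Between the Eμ-Myc stages it was called without malignant replicate 1 (0.56, adjusted p = 0.0479) and not otherwise. Of the exon bases of Eif3d, 32.7% overlap the antisense gene Gm17638, which stood at 2.63 to 4.30 CPM. The library kit does not mark strand.

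**Figure D4:**
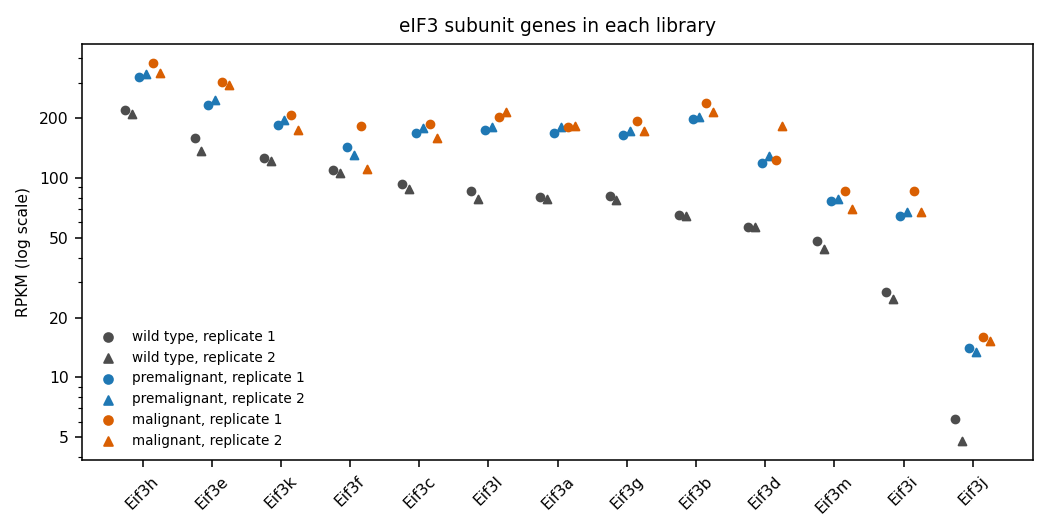
RPKM of the 13 eIF3 subunit genes (log scale) in each library, ordered by the wild-type mean; colour gives the stage and symbol the replicate. Both wild-type points lie below the other 4 for each subunit, and the spacing between wild type and the other stages is wider at Eif3b, Eif3i and Eif3j than at Eif3h, Eif3k and Eif3f.

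Among the eIF4 genes, Eif4e, Eif4a1 and Eif4g1, 1 for each part of eIF4F, were called higher in both stages, while Eif4a2, Eif4g2 and Eif4g3 were called in neither. Eif4e, the cap-binding protein, stood at 91.9 and 72.8 CPM in wild type, 186 and 184 in premalignant and 196 and 261 in malignant libraries (1.47 ± 0.19, adjusted p = 0.00245, and 1.17 ± 0.19, adjusted p = 0.00814). Eif4a1, the main helicase, stood at 359 and 297, 922 and 885, and 921 and 946 CPM (1.51 ± 0.16 and 1.46 ± 0.16). Eif4g1, the main scaffold, stood at 370.0 and 409, 912 and 972, and 962 and 1305 CPM (1.54 ± 0.19 and 1.27 ± 0.19). For all 3 genes the Eμ-Myc libraries lay above wild type without overlap.

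Eif4a2, the second helicase of initiation, stood at 436 and 497 CPM in wild type, 571 and 534 in premalignant and 499 and 630.0 in malignant libraries and was not called (0.27 ± 0.17 and 0.24 ± 0.17). Eif4g3 stood at 229 and 312, 246.4 and 245.7, and 237 and 200.3 CPM (−0.31 ± 0.19 and −0.14 ± 0.19). The level per length of Eif4a1 relative to Eif4a2 was 1.01 and 0.736 in wild type, 1.99 and 2.04 in premalignant and 2.27 and 1.85 in malignant libraries. For Eif4g1 relative to Eif4g3 the ratios were 2.47 and 2.00, 5.66 and 6.04, and 6.20 and 9.95. In both pairs the 4 Eμ-Myc ratios exceeded those of wild type, while the stages of Eμ-Myc overlapped for the helicases.

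Eif4g2 (DAP5), a scaffold that lacks the eIF4E-binding part, stood highest in CPM among the eIF4 genes of wild-type cells and was level across stages. It had 1587 and 1372 CPM in wild type, 1510.0 and 1559 in premalignant and 1532 and 1377 in malignant libraries (−0.03 ± 0.16 and 0.05 ± 0.16). Eif4g1 per length was 0.320 and 0.409 of Eif4g2 in wild type, 0.830 and 0.857 in premalignant, and 0.863 and 1.30 in malignant libraries. The helicase cofactors Eif4b and Eif4h were called higher, by 1.42 and 0.78 in malignant cells and by 1.10 and 0.81 in premalignant cells. Eif4e2, a cap-binding homologue linked to repression, was called in malignant cells only (0.74, adjusted p = 0.0465), with 172 and 105.0 CPM in the malignant libraries and 87.5 and 78.7 in wild type. The premalignant libraries, at 124 and 121 CPM, also lay above wild type (0.56, adjusted p = 0.121) and above malignant replicate 2. Between the Eμ-Myc stages the difference in Eif4e2 was 0.18 and was not called. Eif4e3 was called lower on 20 and 43 counts in wild type and 5 to 8 counts in the other libraries (−2.14 ± 0.73, adjusted p = 0.0548), and the call was lost without wild type replicate 2 (−1.01, adjusted p = 0.347) and also without either malignant replicate or premalignant replicate 1. In premalignant cells the call (−2.30 ± 0.73, adjusted p = 0.0565) was lost without either premalignant replicate (adjusted p = 0.263 and 0.205) or wild type replicate 2 (−1.16, adjusted p = 0.333).

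**Figure D5:**
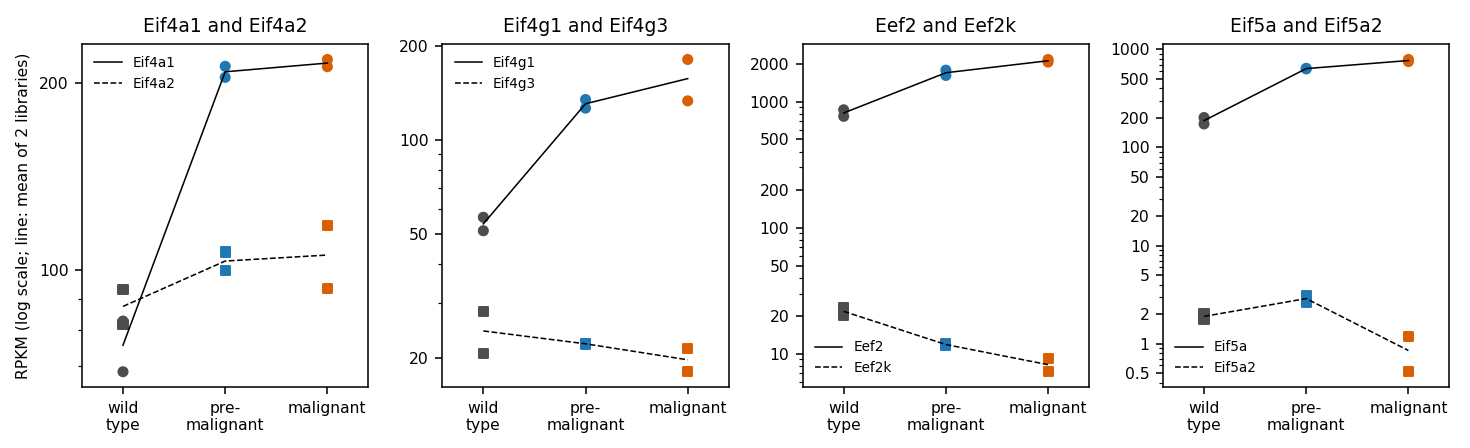
RPKM (log scale) of 4 gene pairs in each library, with lines through the means of the 2 libraries of a stage; circles are the first gene of the pair and squares the second. Eif4a1 and Eif4g1 rise while Eif4a2 and Eif4g3 stay near their wild-type levels, and Eef2 and Eef2k move in opposite directions.

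The repressors that hold eIF4E away from eIF4G were also called higher. Eif4ebp1 stood at 23.9 and 26.0 CPM in wild type, 43.9 and 47.2 in premalignant and 53.0 and 63.5 in malignant libraries (1.22 ± 0.16 and 0.87 ± 0.16). Eif4ebp2 stood at 124 and 111, 181 and 200.3, and 195 and 245 CPM (0.90 ± 0.16 and 0.70 ± 0.16). The premalignant calls were lost without premalignant replicate 2 (adjusted p = 0.113 and 0.176), and that of Eif4ebp2 also without premalignant replicate 1 or wild type replicate 2. The ratio of Eif4e to Eif4ebp1 per length was 1.31 and 0.953 in wild type, 1.44 and 1.33 in premalignant and 1.26 and 1.40 in malignant libraries, so the malignant replicate 1 lay within the wild-type range. Relative to Eif4ebp2 the ratio was 0.458 and 0.407, 0.635 and 0.569, and 0.623 and 0.660. Eif4ebp3 was near the detection limit, at 0.452 to 1.00 CPM, and 67.3% of its exon bases overlap Ankhd1. Eif4enif1, the nuclear importer of eIF4E, was not called (0.19 and 0.38).

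Of the eIF1 family, Eif1a showed the largest rise of all 60 members in malignant vs. wild type. This gene, which encodes an eIF1A that helps the ribosome scan, stood at 44.7 and 31.1 CPM in wild type, 124 and 132 in premalignant and 182 and 229 in malignant libraries (2.44 ± 0.22, adjusted p = 0.000949, and 1.75 ± 0.22, adjusted p = 0.00379). Between the Eμ-Myc stages its difference was 0.69 ± 0.21 and missed the threshold in edgeR (adjusted p = 0.154), whereas DESeq2 called it, as did edgeR without malignant replicate 1 (0.84). The X-linked Eif1ax, which is no member, was called higher by 0.93 and 1.04. Eif1, which guards the choice of start codon, stood at 241 and 236, 295.4 and 256, and 295.2 and 277 CPM and was not called (0.26 and 0.21), nor was Eif1b. Eif5, the GTPase activator of eIF2, was called higher by 1.13 ± 0.15 and 0.83 ± 0.15.

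Factors of subunit joining and beyond rose as well. Eif5b, the GTPase of subunit joining, was called higher by 1.28 ± 0.15 and 1.14 ± 0.15. Eif6, which keeps free large subunits apart, stood at 69.6 and 61.2 CPM in wild type, 120.3 and 118 in premalignant and 138 and 121 in malignant libraries (0.98 ± 0.14 and 0.87 ± 0.14). Eif5a, the hypusine-carrying factor that helps peptide bond formation at difficult sequences, stood at 480.1 and 413, 1504 and 1526, and 1877 and 1785 CPM (2.04 ± 0.16, adjusted p = 0.000691, and 1.76 ± 0.16, adjusted p = 0.00195). Of the enzymes that make hypusine, Dohh was called higher in both stages (1.50 and 0.98) and Dhps in neither (0.27 and 0.29).

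Eif5a2, the paralog of Eif5a, was the member called lower between the Eμ-Myc stages. It stood at 10.2 and 8.72 CPM in wild type, 13.2 and 15.6 in premalignant and 5.92 and 2.58 in malignant libraries. The difference between malignant and premalignant cells was −1.75 ± 0.42 (adjusted p = 0.0948), and that between malignant and wild-type cells −1.15 ± 0.41 (adjusted p = 0.0658). The malignant libraries did not overlap with any other, but they differed from each other by more than 0.5 on the log2 scale. The first call was lost when any 1 of the premalignant or wild-type libraries was left out (adjusted p = 0.207 to 0.470), and the second when any 1 of those was left out as well (adjusted p = 0.129 to 0.224). Per length, Eif5a stood at 98.8 and 99.6 times Eif5a2 in wild type, 240 and 206 in premalignant and 666 and 1453 in malignant libraries.

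Elongation factors made up a large share of the members' counts. eEF1A, which delivers aminoacyl-tRNA, is encoded here by Eef1a1, the member of highest level per length in wild type (2039 and 1882 RPKM). In CPM it stood at 5084 and 4691 in wild type, 11603 and 12295 in premalignant and 14890.0 and 9761 in malignant libraries (1.33 ± 0.25, adjusted p = 0.00767, and 1.29 ± 0.25, adjusted p = 0.0131). The premalignant call was lost without premalignant replicate 2 (adjusted p = 0.117) or wild type replicate 2 (adjusted p = 0.11). The genes of the exchange factor eEF1B rose likewise. Eef1b2 stood at 379 and 343, 1079 and 1110, and 2096 and 1037 CPM, so its malignant libraries lay on both sides of the premalignant ones (2.12 ± 0.33 and 1.60 ± 0.32). Its premalignant call was lost without wild type replicate 2 (adjusted p = 0.113), and without malignant replicate 2 it was called higher in malignant vs. premalignant (0.90). Eef1g was called higher by 1.78 and 1.64 and Eef1d by 1.35 and 1.30. Repeated windows made up 46.5% of the exonic windows of Eef1a1 and 41.3% of those of Eef1g, which have many processed copies, and their levels are uncertain for that reason. After these and Eif3j, the largest shares were 34.4% (Eif4e), 32.4% (Eif1), 27.7% (Eif3e), 26.7% (Eif3h) and 26.3% (Eif4a1). The levels of these genes, and the ratios given above that include them, share that limit in part.

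eEF2, which moves the ribosome along the mRNA, and its inhibitory kinase changed in opposite directions. Eef2 stood at 2365 and 2664 CPM in wild type, 4988 and 5494 in premalignant and 6677 and 6370 in malignant libraries (1.38 ± 0.17, adjusted p = 0.00217, and 1.06 ± 0.17, adjusted p = 0.00785). Eef2k stood at 145 and 166, 83.6 and 85.8, and 51.6 and 65.7 CPM (−1.41 ± 0.17, adjusted p = 0.00177, and −0.87 ± 0.16, adjusted p = 0.0121). No library of an Eμ-Myc stage overlapped with wild type for either gene. The ratio of Eef2 to Eef2k per length was 37.8 and 37.2 in wild type, 138 and 148 in premalignant, and 299.6 and 224 in malignant libraries. The premalignant call of Eef2k was lost without either premalignant replicate (adjusted p = 0.111 and 0.113), and that of Eef2 without premalignant replicate 2 (adjusted p = 0.111). Between the Eμ-Myc stages, Eef2k was not called in edgeR (−0.53 ± 0.16, adjusted p = 0.155), but was called by DESeq2 (−0.56) and by edgeR without malignant replicate 2 (−0.75). Of the exon bases of Eef2k, 26.3% overlap other annotated genes, among them a second Eef2k identifier.

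Of 9 members that belong to the textbook group of mRNAs with a terminal oligopyrimidine start, 8 were called higher in both comparisons with wild type. Eif3f was the exception, and the medians were 1.35 and 1.10. The share called higher was 88.9% in each, beside 65.0% and 63.3% of all members tested. The shares of all genes, given above, were lower still, and these differences in share were not tested. The pyrimidine run defined above was found for 2 of the 5 textbook members with a promoter window. The uncalled Eif3f has such a run. A further 3 members were not tested because of low counts: Eef1a2 and the second Eef2k identifier had 0 counts in all 6 libraries, and Eif4e1b had at most 3. All exon bases of that second Eef2k identifier overlap the main Eef2k gene, so its 0 counts depend on how shared reads were counted. Of the Argonautes, Eif2c1 was called lower in malignant cells (−0.90) and Eif2c4 in both stages, with 31.0 and 37.4 CPM in wild type and 10.4 to 11.4 CPM in the other libraries (−1.65 ± 0.19 and −1.69 ± 0.19). Eif2c2, the Argonaute with slicer activity, stood at 181 and 204, 251 and 242, and 224 and 291 CPM and was not called (0.42 and 0.36), except without malignant replicate 1 (0.60 in malignant vs. wild type). Eif4a3 was called higher, by 0.85 and 0.93.

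Other genes of cytosolic translation moved in a similar way. Of 28 tested, 17 were called higher and 2 lower in malignant vs. wild type, and 15 higher and 2 lower in premalignant vs. wild type, with medians of 0.65 and 0.53. Those that rose included Larp1, which binds oligopyrimidine mRNAs (1.92 and 1.74), the poly(A)-binding proteins Pabpc1 (1.51 and 1.27) and Pabpc4 (1.81 and 1.77), the release factors Etf1 (1.57 and 1.26) and Gspt1 (1.68 and 1.37), and the recycling factor Abce1 (1.45 and 1.45). Rps6kb2 and Mknk1, kinases of the mTOR and MAP kinase pathways, were called lower in both, by −1.19 and −0.67 in malignant cells. Their paralogs went the other way. Rps6kb1 was called higher in both (0.62 and 0.53). Mknk2 was called higher in malignant cells only (1.29), with 443 and 1061 CPM there and 297 and 317 in wild type. Mtor and Rptor were not called. Of 6 mitochondrial translation factors, 4 (66.7%) were called higher in each comparison with wild type. Beside these counts, 5 of 6 proliferation genes were called higher in premalignant and 2 of 6 in malignant vs. wild type, and their part in the results was not tested.

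Replicates differed least in the premalignant stage. A difference of at least 0.5 on the log2 scale between the libraries of a stage was found for 0 of 60 members in premalignant cells, 3 in wild type (Eif1a, Eif2ak4 and Eif4e3) and 6 in malignant cells. Over all genes tested the shares were 17.3%, 22.2% and 40.8%. The 6 members in malignant cells were Eef1a1, Eef1b2, Eif3f, Eif4e2 and Eif5a2, higher in replicate 1, and Eif3d, higher in replicate 2.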

How the data were processed

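The labels gave the stage and replicate number of each of the 6 libraries. The authors aligned reads and counted them per gene with HTSeq, and the deposited values are raw counts. The processing notes of the submitters name CASAVA 1.8.2, Bowtie, HTSeq, DESeq and mm9, while the study's methods name TopHat. HTSeq's options are not given in the sources used here. The deposited DEseq comparison tables (group means, fold changes and p-values) were not used.

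Counts of all 6 libraries entered 1 fit of edgeR 4.0.16 (quasi-likelihood test, R 4.3.3) after TMM scaling, with the low-count filter filterByExpr. P-values were adjusted by Benjamini-Hochberg over all 16683 genes tested. The study's thresholds were kept (FDR 0.1, log2 fold change 0.5 in either direction). SE is the size of the log2 fold change divided by the root of its F statistic. CPM and RPKM were computed here from counts, TMM library sizes and GENCODE vM1 exon lengths on NCBIM37. TMM takes most genes as unchanged, so a change in total RNA per cell would not be seen. The fits were also run on simulated data with 200 genes changed, and only in malignant libraries. Far more genes were called in the data themselves, so that run does not test the scaling in the setting of these data.

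Alternatives were DESeq2 1.42.0, other scalings, filters and thresholds, a replicate block, fits of only the stages compared and leaving out each library. Genes given with values in every library are a set list, the extremes of each role, members called between the Eμ-Myc stages and members not tested. Members given beyond these, and genes outside the rule, were chosen after their values were seen. The members and lists were chosen with earlier results of these data known.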

Additional observations from a re-analysis of the deposited data

How the results depend on the processing

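Upper-quartile normalization shifted the median of all genes by −0.17 in malignant vs. wild type and by −0.08 in each of the other comparisons. With it, subunit medians in malignant vs. wild type were 1.50 (eIF2), 1.02 (eIF3) and 1.31 (eIF4F), those in premalignant vs. wild type 1.00 (eIF3) and 1.08 (eIF4F), and those in malignant vs. premalignant 0.04 (eIF3) and −0.04 (eIF4F), the last with the opposite sign. A minimum of 10 counts in every library gave 1.09 (eIF3) and 1.38 (eIF4F) in malignant vs. wild type. Requiring a log2 change of 1 or more in either direction left 25 members called in premalignant vs. wild type. In malignant vs. premalignant, DESeq2 called 4 members, no filter on low counts 4, a minimum of 10 counts 2, a fit of only these stages 0 and an FDR of 0.05 0. The cause of these differences was not tested, beyond what the settings themselves change.

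Leaving out each library in turn gave 43 to 46 members called in malignant vs. wild type, 27 to 44 in premalignant vs. wild type and 0 to 4 in malignant vs. premalignant, the 27 without premalignant replicate 2. Medians ranged from 1.49 to 1.86 (eIF2), 1.13 to 1.20 (eIF3) and 1.28 to 1.54 (eIF4F) in malignant vs. wild type, from 1.20 to 1.57, 1.04 to 1.15 and 1.01 to 1.22 in premalignant vs. wild type, and from 0.22 to 0.31, 0.03 to 0.16 and −0.01 to 0.19 in malignant vs. premalignant. In malignant vs. premalignant, Eif5a2, Eif1a, Eif2s1 and Eif3d were called without malignant replicate 1, and Eif5a2, Eef1b2, Eef2k and Eif2ak4 without malignant replicate 2. Where a stage was left with 1 library, that library was taken to vary like the others.

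The labels do not say what libraries with the same replicate number share, and the 3 replicate 1 libraries held more counts (51065861 to 53453055) than the 3 replicate 2 libraries (30031100 to 34543633). With the numbers as a replicate block, 45, 43 and 1 members were called in malignant vs. wild type, premalignant vs. wild type and malignant vs. premalignant, beside 45, 42 and 1 without it. Deviations of libraries with the same number correlated at 0.509 (wild type and premalignant), 0.186 (wild type and malignant) and 0.257 (premalignant and malignant).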
